A study of Mus musculus with 43 samples.

Results

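Mir143 and Mir145a are neighbouring microRNA genes whose products, miR-143 and miR-145, are abundant in smooth muscle. They were followed here, as rows Mir143-201 and Mir145a-201, through the epididymis of the mouse, the coiled duct in which sperm mature on the way from the testis. Each row was found by its exact name in 3 tables of small RNA counts, for epididymis tissue, epididymal fluid and cauda sperm. Together they make up 2 of the 5364 small RNA genes that the tables list between them, of which 312 (tissue), 331 (fluid) and 394 (sperm) were microRNA genes. All mice were FVB males aged 8 to 12 weeks, either wild type (WT) or carrying a CRISPR/Cas9 deletion of the cluster Rnase9, Rnase10, Rnase11 and Rnase12 (KO), which encodes RNase A family proteins of the epididymis. The study compared the genotypes in the proximal (caput), middle (corpus) and distal (cauda) part of the duct. Tissue gave 3 libraries for each segment and genotype except KO corpus with 2, fluid gave 3 for each, and sperm from the cauda gave 4 for each genotype. Every library was made from total RNA treated with polynucleotide kinase. The deleted genes are not among the small RNA rows, so the deletion itself was not checked here.

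The limits of these groups bear on each value that follows. Tissue RNA was sequenced by ARM-seq, in which a demethylase clears modified bases before reverse transcription. Fluid and sperm RNA was sequenced by OTTR-seq, in which a reverse transcriptase copies RNA and joins adapters in a single step. A difference in level between tissue and the other materials therefore cannot be told apart from the difference in method, and tests were run only within a table. Each fluid or sperm library pooled the RNA of 3 mice, and fluid had been cleared of sperm, vesicles and debris. The libraries were grouped by their titles. For 7 of them a section label says cauda where the title and the sample description both say caput. These are WT caput tissue replicate 3 and all 6 caput fluid libraries. Values without WT caput tissue replicate 3 are given where they differ. The study calls its replicates biological, and the labels do not say which animals they came from, so p-values measure the spread between these libraries. The tissue sample descriptions attach the replicate number to the genotype in every segment, but do not say whether it marks the same animal. The main segment tests treat these libraries as independent.

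The microRNAs miR-143 and miR-145 are cut from separate hairpins of a shared primary transcript. In smooth muscle that transcript is switched on by serum response factor with its coactivator myocardin, and the microRNAs hold the cells in a contractile state by repressing factors such as Klf4 and Elk1. The epididymal duct is wrapped in smooth muscle whose coat thickens towards the cauda, where strong contractions expel stored sperm. In the mouse genome build GRCm38 (mm10), Mir143 lies on chromosome 18 from 61649196 to 61649258 and Mir145a from 61647825 to 61647894, both on the minus strand. The annotated hairpins are 63 and 70 nucleotides (nt) long with 1301 nt between them, and no other annotated gene or exon overlaps either. Counts were given per hairpin, so its 5p and 3p products were not separated.

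Tissue libraries held 30142156 to 249732714 counts, fluid libraries 1948718 to 12320922 and sperm libraries 1134840 to 62128314, and most came from other small RNAs. MicroRNA counts numbered 7795 to 119102 per tissue library, 9264 to 52541 per fluid library and 1119 to 78957 per sperm library. Levels are given as counts per 1000000 (CPM) after scaling by trimmed mean of M values (TMM), and differences as log2 fold changes from edgeR's quasi-likelihood test. Adjusted p-values were corrected over every tested row of a table (tissue 3488, fluid 2023, sperm 2480), and a row was called at an adjusted p under 0.05.

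In tissue, Mir143 rose steeply towards the cauda. In the caput its level was 37.4, 19.0 and 22.5 CPM in WT replicates 1, 2 and 3 and 21.8, 29.6 and 35.5 CPM in the KO replicates. In the corpus the WT replicates held 41.5, 80.02 and 47.5 CPM, against 22.7 and 26.8 CPM in both KO replicates. In the cauda it was 206, 102 and 148 CPM in WT and 117, 128 and 99.97 CPM in KO. Every cauda library lay above every caput and corpus library, whereas the KO corpus libraries lay inside the range of the caput. On the log2 CPM scale the group means ran from 7.19 ± 0.51 (SD, n = 3) in WT cauda through 6.84 ± 0.18 in KO cauda and 5.76 ± 0.50 in WT corpus to 4.83 ± 0.36 in KO caput, 4.66 ± 0.51 in WT caput and 4.63 ± 0.17 (n = 2) in KO corpus. WT and KO cauda overlapped, as did the 3 lowest groups, while the WT corpus lay between them without overlap.

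Mir145a followed the same course at a lower level. In the caput it stood at 2.86, 1.55 and 5.14 CPM in WT and 1.70, 3.16 and 4.25 CPM in KO. The WT corpus held 2.69, 7.48 and 6.55 CPM and the KO corpus 1.58 and 2.70 CPM. The cauda held 8.995, 5.96 and 11.6 CPM in WT and 6.73, 12.3 and 7.47 CPM in KO. The lowest cauda library, at 5.96 CPM, was above the highest caput library, at 5.14 CPM, which was the WT library with the conflicting section label, but the WT corpus overlapped both. Its group means were 3.10 ± 0.48 in WT cauda, 3.09 ± 0.47 in KO cauda, 2.35 ± 0.80 in WT corpus, 1.51 ± 0.86 in WT caput, 1.51 ± 0.67 in KO caput and 1.06 ± 0.54 (n = 2) in KO corpus on the log2 CPM scale, and each group overlapped the next in this order. All 6 cauda libraries lay above all 6 caput libraries for both genes, which held for 13.2% of all tested rows and 14.0% of the 172 tested microRNA rows. The share of rows was not counted for any other separation of groups named in these results.

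**Figure D1:**
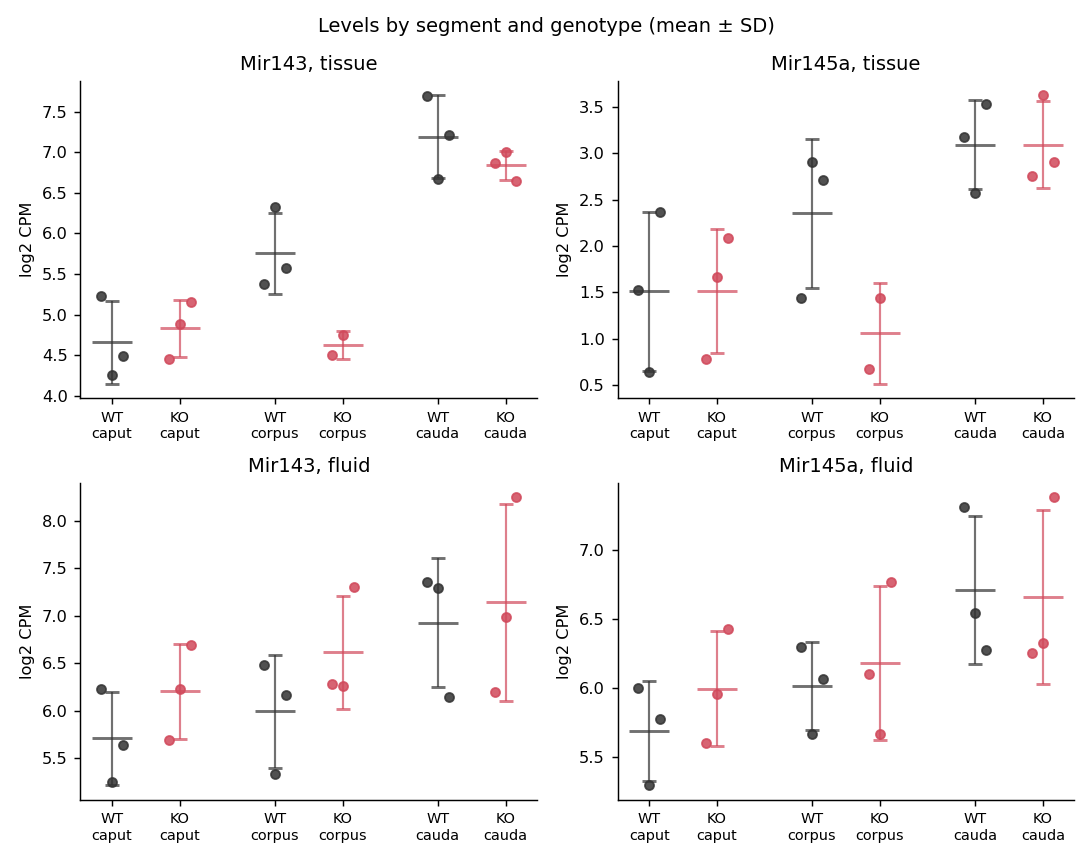
Level of Mir143 and Mir145a in each library, in log2 CPM, by segment and genotype, for tissue (top) and fluid (bottom); points are libraries, and dashes with bars are the group mean ± SD. In tissue every cauda library lies above every caput library, while in fluid the cauda and caput libraries overlap.

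Averaged over the genotypes, Mir143 was 4.79-fold higher in cauda than in caput tissue (log2 fold change 2.26, 95% interval 1.72 to 2.80, edgeR adjusted p = 1.99e-06). Mir145a was 2.84-fold higher (1.51, 0.75 to 2.26, edgeR adjusted p = 0.00301). Both passed the test, in a comparison in which 21.6% of all rows and 25% of the microRNA rows were called higher in the cauda, so a rise in itself was common. The median log2 fold change was -0.02 over all rows and 0.31 over microRNA rows, and by size Mir143 came 26th and Mir145a 37th of the 172. Within WT alone the log2 fold changes were 2.53 for Mir143 (edgeR adjusted p = 7.14e-05) and 1.47 for Mir145a (0.0423), and within KO alone 1.99 (0.000496) and 1.54 (0.0319), against 15.8% of rows called higher in WT and 17.3% in KO. Library-size scaling ended the Mir143 call in KO (1.10, edgeR adjusted p = 0.107) and the Mir145a calls in WT (1.12, 0.238) and KO (0.62, 0.480). The Mir145a call in WT was also lost with microRNA scaling (0.98, 0.121) and with only the compared groups (1.58, 0.0552), and that in KO without a filter (1.38, 0.0512). Leaving out 1 library ended the Mir145a call in 4 of 6 runs for WT (adjusted p up to 0.157) and in 3 of 6 for KO (up to 0.113). Without WT caput replicate 3, the library with the conflicting label, the averaged values were 2.25 for Mir143 and 1.80 for Mir145a, both called (edgeR adjusted p = 1.19e-05 and 0.000755). In these bulk samples, fewer cells of a type and less RNA per cell cannot be told apart. With scaling by library size alone, which set the median of all rows at -0.61, Mir143 kept its call at 1.61 (edgeR adjusted p = 0.0015) but Mir145a fell to 0.87 and missed it (0.126).

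Of the steps along the duct, corpus to cauda was called for both genes when the genotypes were averaged and caput to corpus for neither. Against the corpus, cauda tissue held 3.54-fold more Mir143 (log2 fold change 1.82, 95% interval 1.25 to 2.40, edgeR adjusted p = 0.000271) and 2.56-fold more Mir145a (1.36, 0.54 to 2.17, edgeR adjusted p = 0.0226), where 12.7% of all rows were called higher. The Mir145a call was lost without KO corpus replicate 1 (adjusted p = 0.108) and with library-size scaling (0.169). Between caput and corpus the averaged difference was 0.44 for Mir143 (-0.11 to 0.98, edgeR adjusted p = 0.282) and 0.15 for Mir145a (0.826), with 9.81% of rows called higher. In WT alone Mir143 was higher in corpus than in caput by 1.10 (edgeR adjusted p = 0.0492, 9% of rows called higher), a call lost on leaving out any of its 6 libraries but WT caput replicate 1 (adjusted p up to 0.218) and under 5 other settings: library-size scaling (0.71, adjusted p = 0.508), microRNA scaling (0.35, 0.456), only the compared groups (1.13, 0.141), no filter (adjusted p = 0.0947) and DESeq2 size factors (0.98, 0.0790). In KO the same differences were -0.23 for Mir143 (0.799) and -0.50 for Mir145a (0.714), neither called, with 0.487% of rows called higher. The KO effect in the corpus minus that in the caput, added after seeing the data, was not called for either gene. Under the alternatives that kept every replicate it ran from -1.47 to -0.17 for Mir143 and from -1.51 to -0.089 for Mir145a. The lowest adjusted p (edgeR or DESeq2) was 0.391 and 0.743, and DESeq2 called 0 rows.

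The rise was also seen in what share of a library's microRNA counts each gene took, a measure that does not use the scaling. Mir143 took 8.46%, 9.94% and 7.71% in WT caput and 7.24%, 8.58% and 9.36% in KO caput. It took 35.9%, 30.1% and 34.7% in WT cauda and 22.8%, 27.04% and 31.2% in KO cauda, so that the lowest cauda share, 22.8%, lay above the highest caput share, 9.94%. The corpus means were 12.9% ± 2.52 in WT (SD, n = 3) and 8.60% ± 3.23 in KO (n = 2). Copies of a microRNA share counts, so the total behind these shares holds some reads more than once. With 1 copy kept per microRNA, the means for Mir143 were 9.92% in WT caput and 37.6% in WT cauda, and 9.56% and 30.9% in KO. The share of Mir145a went from 1.07% ± 0.60 in the caput to 2.01% ± 0.62 in the cauda of WT, and from 0.87% ± 0.28 to 2.08% ± 0.68 in KO. Its caput and cauda shares overlapped through WT caput replicate 3 (1.76%), the library with the conflicting label. The other caput libraries, at 1.12% or less, lay below the lowest cauda library at 1.31%. With counts divided by hairpin length, Mir143 ranked between the 1st and the 3rd of all microRNA genes in every tissue library, and Mir145a between the 4th and the 27th. All the microRNAs together made up less than 1% of the counts in any library.

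**Figure D2:**
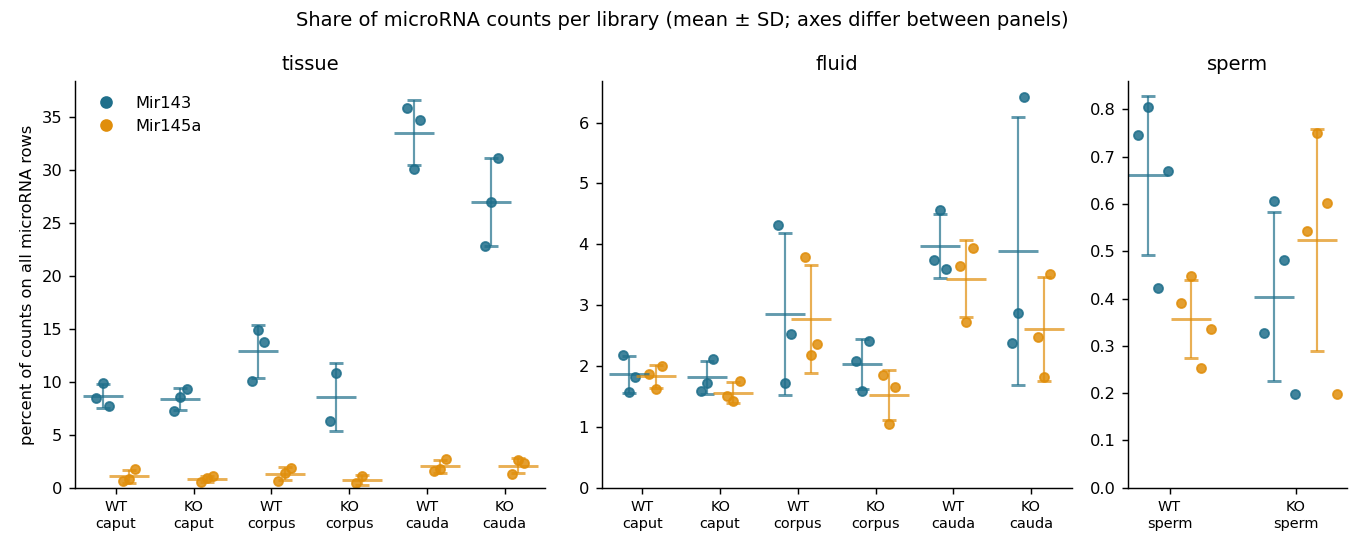
Percent of a library's microRNA counts that fell on Mir143 and on Mir145a, by segment and genotype, for tissue, fluid and sperm; points are libraries, and dashes with bars are the group mean ± SD. In tissue Mir143 goes from 8.71% of microRNA counts in WT caput to 33.6% in WT cauda.

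Other muscle microRNAs were also higher in cauda tissue. Against the caput, 21.6% of all rows and 25% of microRNA rows were called higher in the cauda. A list of 10 muscle microRNAs was chosen with earlier results of these data known. Of the 10 in the list, 5 had a row, 4 could be tested and all 4 were called higher in the cauda than in the caput, with a median log2 fold change of 1.82. They were both copies of miR-1 (Mir1a-1 and Mir1a-2, each 1.72, edgeR adjusted p = 0.000334), which promotes muscle differentiation, and both copies of its co-transcribed partner miR-133a (Mir133a-1 1.93, edgeR adjusted p = 0.0286; Mir133a-2 1.93, 0.0279). The copies share reads, so these are in effect measurements of 2 microRNAs. Summed over the list, WT libraries held 0.744 to 1.91 CPM in the caput and 4.24 to 7.004 CPM in the cauda, and KO libraries 1.11 to 1.46 CPM and 3.08 to 4.09 CPM. The skeletal and cardiac muscle genes Mir206, Mir208a, Mir208b and Mir499 and the second miR-145 gene Mir145b were at 0 or without a row in tissue. The tables count small RNAs, so no messenger RNA marker of smooth muscle could be examined.

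MicroRNA markers of other cell types were compared in the same way. Of 9 epithelial microRNAs, 4 were called lower in the cauda and none higher (median -0.85), where 19.0% of all rows and 11.6% of microRNA rows were called lower. Among them was Mir200b, whose product guards the epithelial state (-0.90, edgeR adjusted p = 0.0325). Their summed level in WT was 9.16 to 27.6 CPM in the caput and 9.58 to 16.9 CPM in the cauda, and in KO 13.7 to 26.6 CPM and 8.22 to 13.9 CPM. None of the 6 fibroblast and mesenchyme microRNAs was called (median 0.46), with sums of 20.9 to 50.3 CPM in WT caput and 24.2 to 42.9 CPM in WT cauda. The endothelial Mir126a (-0.59) and the 1 leukocyte microRNA tested (0.56) were not called, and no neuronal one could be tested. Mir486, found in red blood cells and in muscle, was called higher (4.04, edgeR adjusted p = 3.18e-06), at a summed list level of at most 0.24 CPM. Of the 2 male germ cell microRNAs tested, Mir881 was called higher (3.34, edgeR adjusted p = 0.00129), where 21.6% of all rows and 25% of microRNA rows were called higher. The part of any of these cell types in the rise of Mir143 and Mir145a was not tested.

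The muscle microRNAs were also nearest to Mir143 in the shape of their tissue profile. Likeness was taken as the root mean square difference between mean-centred log2 CPM profiles over the 6 tissue groups, a description with no test, since all rows share the same libraries. Nearest to Mir143 were Mir1a-1 and Mir1a-2 (0.27 each), Mir133a-2 (0.28), Mir133a-1 (0.29) and Mir145a (0.31), where the median microRNA gene was at 1.01. Nearest to Mir145a were Mir1a-1 and Mir1a-2 (0.26 each), Mir7025 (0.29), Mir133a-1 and Mir133a-2 (0.30 each), with Mir143 next at 0.31 and a median of 0.82.

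**Figure D3:**
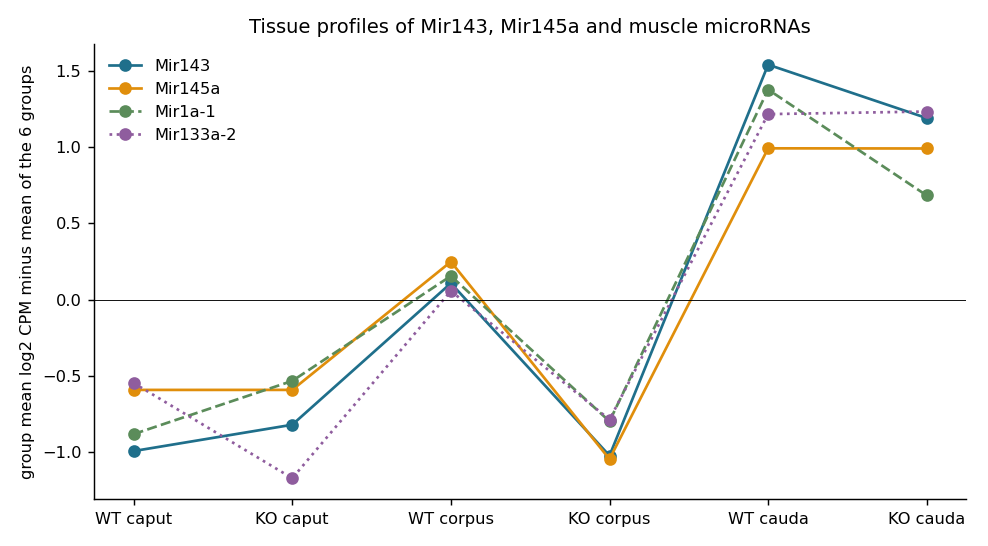
Mean-centred log2 CPM over the 6 tissue groups for Mir143, Mir145a, Mir1a-1 and Mir133a-2; lines join group means. All 4 lines are highest in the cauda groups, and the other lines differ from that of Mir143 by a root mean square of 0.27 to 0.31.

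Between the genotypes, neither gene was called in any tissue segment. In the caput the KO minus WT log2 fold change was 0.14 for Mir143 (95% interval -0.59 to 0.86) and -0.07 for Mir145a (-1.12 to 0.97), and edgeR called 0% of rows, with 34 rows under an unadjusted p of 0.05 and 0 called by DESeq2. In the cauda it was -0.40 for Mir143 (95% interval -1.13 to 0.32, edgeR adjusted p = 0.61) and -0.0025 for Mir145a (-1.05 to 1.05, 0.998), where 0.860% of rows were called in either direction. The KO effect in the cauda minus that in the caput was -0.54 for Mir143 (edgeR adjusted p = 0.974) and 0.07 for Mir145a (0.994). edgeR called 0% of rows for that difference, with 211 under an unadjusted p of 0.05 and 0 called by DESeq2.

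In the corpus the KO libraries were lower for both genes, but the difference did not pass the correction and most microRNAs were lower as well. For Mir143 both KO libraries, at 22.7 and 26.8 CPM, lay below the lowest WT library at 41.5 CPM. How many other rows were apart in this way was not counted. The log2 fold change was -1.19 (95% interval -2.03 to -0.34, edgeR unadjusted p = 0.00877, adjusted p = 0.437). Mir145a overlapped by a narrow margin (2.70 CPM in KO against 2.69 CPM in WT), with -1.38 (-2.61 to -0.15, edgeR unadjusted p = 0.0303, adjusted p = 0.581). edgeR called 0% of rows here, with 279 under an unadjusted p of 0.05, and DESeq2 called 24. The median over microRNA rows was -1.02, and microRNAs made up 0.0235% to 0.0274% of the counts in KO corpus against 0.0340% to 0.0515% in WT corpus. The medians of the marker lists were -1.51 for muscle, -1.18 for fibroblasts and -0.95 for epithelium. The single tested genes of endothelium, leukocytes and red blood cells stood at -1.11, -0.77 and -5.04, the 2 of male germ cells at a median of 0.35, and none of any list was called. With TMM factors taken from the microRNA rows alone, which set the median of all rows at 0.77, the differences shrank to -0.28 for Mir143 and -0.46 for Mir145a. The part of this shift of microRNAs in the corpus result was otherwise not tested.

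In fluid, both genes were higher in the cauda than in the caput on average, but the libraries of these segments overlapped. Mir143 was at 74.8, 37.8 and 49.7 CPM in WT caput and 51.3, 74.6 and 103 CPM in KO caput. The corpus held 89.3, 39.9 and 71.5 CPM in WT and 77.4, 76.2 and 158 CPM in KO, and the cauda 163, 156 and 70.4 CPM in WT and 72.9, 126 and 304 CPM in KO. WT caput and KO corpus were apart by a narrow margin, every other pair of groups overlapped, and the KO cauda spanned the widest range. For Mir145a the caput libraries held 63.7, 39.0 and 54.5 CPM in WT and 48.2, 61.8 and 85.9 CPM in KO. Its corpus level was 78.5, 50.7 and 66.8 CPM in WT and 68.6, 50.5 and 109 CPM in KO, and its cauda level 158, 93.2 and 77.01 CPM in WT and 76.2, 80.1 and 167 CPM in KO. For Mir145a the WT caput lay below both cauda groups, but the highest KO caput library lay above the lowest library of either cauda group. KO cauda replicate 3 was the highest fluid library for both genes. In fluid Mir143 took 1.57% to 6.41% and Mir145a 1.05% to 3.94% of a library's microRNA counts.

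Averaged over the genotypes, cauda fluid held 2.29-fold more Mir143 than caput fluid (log2 fold change 1.198, 95% interval 0.46 to 1.94, edgeR adjusted p = 0.00968). Mir145a was 1.86-fold higher (0.89, 0.27 to 1.51, edgeR adjusted p = 0.0188). Of all rows 19.9% were called higher in this comparison, and of microRNA rows 25.4%, with a microRNA median of 0.36. Neither gene was called within WT alone (1.26 and 1.06, edgeR adjusted p = 0.0704 and 0.0683) or KO alone (1.13 and 0.72, 0.096 and 0.205), where 9.84% and 11.8% of rows were called higher. The calls were also close to the threshold: the Mir143 call was lost without KO cauda replicate 3 (0.88, adjusted p = 0.0501), and the Mir145a call was lost without that library (0.72, 0.0688), without WT cauda replicate 1 (0.72, 0.0557) and with microRNA scaling (0.70, 0.0512). Cauda minus corpus was 0.83 for Mir143 and 0.62 for Mir145a (edgeR adjusted p = 0.148 and 0.187, 2.37% of rows called higher), and corpus minus caput 0.37 and 0.27 (0.433 and 0.51, 16% called higher).

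In cauda against caput fluid, 19.9% of all rows and 25.4% of microRNA rows were called higher. Of the muscle list, 1 of 4 tested genes was called higher in cauda than in caput fluid: Mir1a-2, one of the miR-1 copies (1.04, edgeR adjusted p = 0.0427). The median of the list was 0.97, and its summed level in WT was 2.62 to 8.23 CPM in the caput and 5.44 to 18.5 CPM in the cauda, and in KO 3.39 to 7.17 CPM and 7.24 to 17.03 CPM. All 7 tested male germ cell microRNAs were called higher in cauda fluid (median 3.43), and their sum went from 2.79 to 4.49 CPM in WT caput to 24.7 to 45.4 CPM in WT cauda. Called higher were 5 of 6 fibroblast microRNAs (median 0.83) and 1 of 3 leukocyte ones, and called lower were 5 of 9 epithelial (-0.91) and 3 of 3 neuronal ones (-2.10), against 26.8% of all rows and 11.2% of microRNA rows called lower. The neuronal rows are copies of miR-9 that share reads, in effect 1 microRNA. Neither the endothelial microRNA nor the 2 of red blood cells were called, and the part of these lists in the fluid result was not tested. The profiles nearest to Mir143 over the 6 fluid groups were those of Mir15a (0.11), Mir342 (0.19), Mir145a (0.19), Mir99a (0.21) and Mir103-1 (0.21). Those nearest to Mir145a were Mir99a (0.10), Mir425 (0.15), Mir140 (0.16), Mir27a (0.17) and Mir143 (0.19), against a median of 0.60 for both, and no muscle microRNA other than the pair itself was among them.

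Neither gene was called between the genotypes in fluid. KO minus WT was 0.50 for Mir143 and 0.32 for Mir145a in caput (edgeR adjusted p = 0.792 and 0.867), and 0.37 and -0.03 in cauda (0.816 and 0.991). edgeR called 0% of rows in both of these comparisons. There were 214 rows under an unadjusted p of 0.05 in caput fluid and 188 in cauda fluid, and DESeq2 called 9 and 42. In the corpus the difference was 0.63 for Mir143 and 0.22 for Mir145a (edgeR adjusted p = 0.411 and 0.802), in a comparison in which 19.7% of all rows were called in either direction, and 13.5% of all rows and 23.7% of microRNA rows higher in KO. The median microRNA row was higher by 1.07 there, and with microRNA scaling both genes turned lower in KO, at -0.48 for Mir143 and -0.88 for Mir145a (edgeR adjusted p = 0.379 and 0.0942). Of the marker lists, both miR-1 copies were called higher in KO corpus fluid (Mir1a-1 2.23, edgeR adjusted p = 0.012), 2 of the 4 tested muscle genes, while the miR-133a copies were not. Also called higher were 2 of 3 leukocyte genes (list median 2.01), the endothelial Mir126a (1.70, edgeR adjusted p = 0.0199) and 1 of 9 epithelial genes (list median 1.13). The KO effect in cauda minus that in caput fluid was -0.13 for Mir143 and -0.34 for Mir145a (edgeR adjusted p = 0.962 and 0.829), with 0% of rows called, 221 under an unadjusted p of 0.05 and 23 called by DESeq2.

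**Figure D4:**
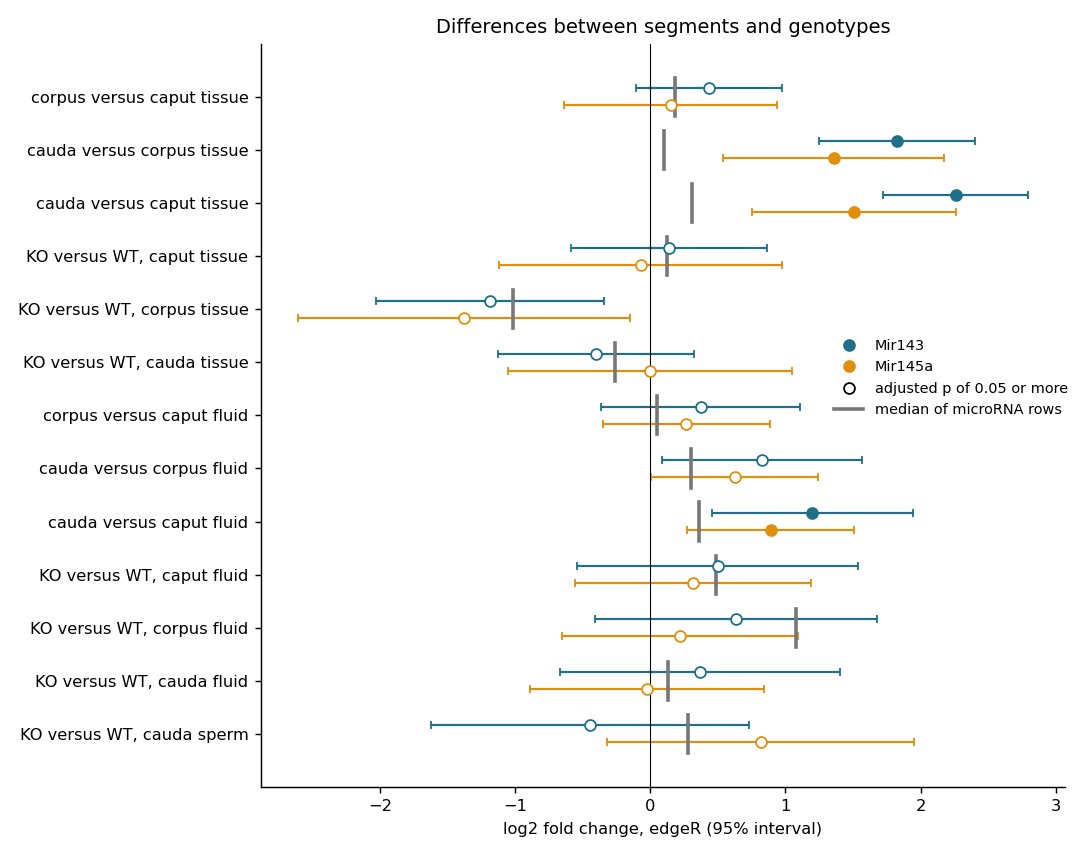
Log2 fold change of Mir143 and Mir145a in each comparison with its 95% interval from edgeR, for segments (mean of WT and KO) and for KO against WT in tissue, fluid and sperm; filled points were called and grey marks are the median of microRNA rows. The intervals for cauda against caput exclude 0 in tissue and fluid, and those for KO against WT include 0 except in corpus tissue.

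In cauda sperm both genes were rare. Mir143 stood at 8.33, 3.51, 2.64 and 12.3 CPM in WT replicates 1 to 4 and 3.12, 8.05, 5.74 and 2.75 CPM in KO, and Mir145a at 4.35, 1.95, 1.59 and 6.14 CPM in WT and 5.17, 9.97, 7.17 and 2.75 CPM in KO. The genotypes overlapped for both genes. They took 0.198% to 0.804% (Mir143) and 0.198% to 0.751% (Mir145a) of the microRNA counts of a sperm library. KO minus WT was -0.44 for Mir143 (95% interval -1.62 to 0.73, edgeR adjusted p = 0.764) and 0.82 for Mir145a (-0.32 to 1.95, 0.484), and edgeR called 0% of rows, with 434 under an unadjusted p of 0.05 and 140 called by DESeq2. Depth was uneven, since 1 WT and 3 KO libraries had 50 or more counts on either gene and WT replicates 2 and 3 had 9 and 5 counts of Mir143. Male germ cell microRNAs summed to 21.5 to 58.1 CPM in WT and 36.7 to 51.1 CPM in KO sperm, muscle microRNAs to 0 to 1.81 CPM and 0.886 to 3.09 CPM, and red blood cell microRNAs to 2.64 to 7.82 CPM and 1.70 to 56.1 CPM. The part of other cells in the sperm values was not tested.

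The balance between the paired hairpins differed between the tables. Per nucleotide of hairpin, Mir143 counts were 4.86-fold to 25.5-fold higher than Mir145a counts in tissue libraries. In fluid the same ratio was 0.876 to 2.03, and in sperm 0.67 to 2.22, a contrast that cannot be told apart from the difference in library method. Within tissue, Mir145a made up 4.17% to 18.6% of the counts of both genes. The log2 ratio of Mir145a to Mir143 counts (0.5 added to each) was lower in cauda, at -3.92 ± 0.40 (SD, n = 6), than in caput, at -3.24 ± 0.60 (n = 6), by 0.68 on average within genotypes (two-sided exact permutation test, p = 0.025, adjusted p = 0.10 over the 7 ratio comparisons). The groups overlapped, and the highest share, 18.6%, was that of WT caput tissue replicate 3, the library with the conflicting label, without which the difference was -0.43 (exact permutation p = 0.065). Replicate 3 was also the highest in WT corpus (12.1%), WT cauda (7.27%) and KO caput (10.7%), though not in KO cauda. By replicate number, the share went from 7.09%, 7.52% and 18.6% in WT caput to 4.17%, 5.53% and 7.27% in WT cauda. In KO it went from 7.23%, 9.63% and 10.7% to 5.43%, 8.79% and 6.95%, so each same-numbered pair was lower in the cauda. The permutation test left this pairing out.

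In sperm the libraries of the genotypes did not overlap in the ratio, but the difference did not pass the correction. How many other pairs of microRNA genes were apart in this way was not counted. Mir145a made up 34.3%, 35.7%, 37.5% and 33.3% of the counts of both genes in WT replicates 1 to 4. In KO it made up 62.4%, 55.3%, 55.5% and 50%, so every KO library lay above every WT library. The mean log2 ratio was 0.34 ± 0.30 (SD, n = 4) in KO and -0.84 ± 0.15 (n = 4) in WT, a difference of 1.18, and the two-sided exact permutation test gave p = 0.0286, the smallest p that 4 against 4 libraries allow, which adjusted over the 7 ratio comparisons was 0.10. The 95% Wilson intervals of the deepest WT library (31.1% to 37.7%, 532 and 278 counts) and of KO replicates 1, 2 and 3 (56.0% to 68.4%, 52.0% to 58.6% and 52.2% to 58.8%) did not overlap. Those of the shallow libraries were wide, at 16.3% to 61.2%, 13.7% to 69.4% and 21.97% to 47.0% in WT replicates 2, 3 and 4 and 28% to 72.0% in KO replicate 4. Counts of Mir143 and Mir145a were 9 and 5, 5 and 3, and 34 and 17 in these WT replicates, and 8 and 8 in KO replicate 4. Only the deepest WT library had 50 or more counts of either gene. The intervals cover counting error only.

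Elsewhere the ratio did not separate the genotypes. In tissue the KO minus WT difference was 0.0032 (two-sided exact permutation p = 0.989). In fluid it was -0.30, opposite in sign to sperm, with means of -0.38 ± 0.30 in KO and -0.07 ± 0.31 in WT (n = 9 each, exact permutation p = 0.0523, adjusted p = 0.122). With 1 fluid library left out, the exact permutation p, not adjusted, ran from 0.015 to 0.146. Between segments the difference in the ratio was -0.25 for corpus minus caput tissue (exact permutation p = 0.45), -0.09 for corpus minus caput fluid (0.445) and -0.24 for cauda minus caput fluid (0.23). Whether the KO effect on the ratio differed between sperm and fluid was not tested.

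**Figure D5:**
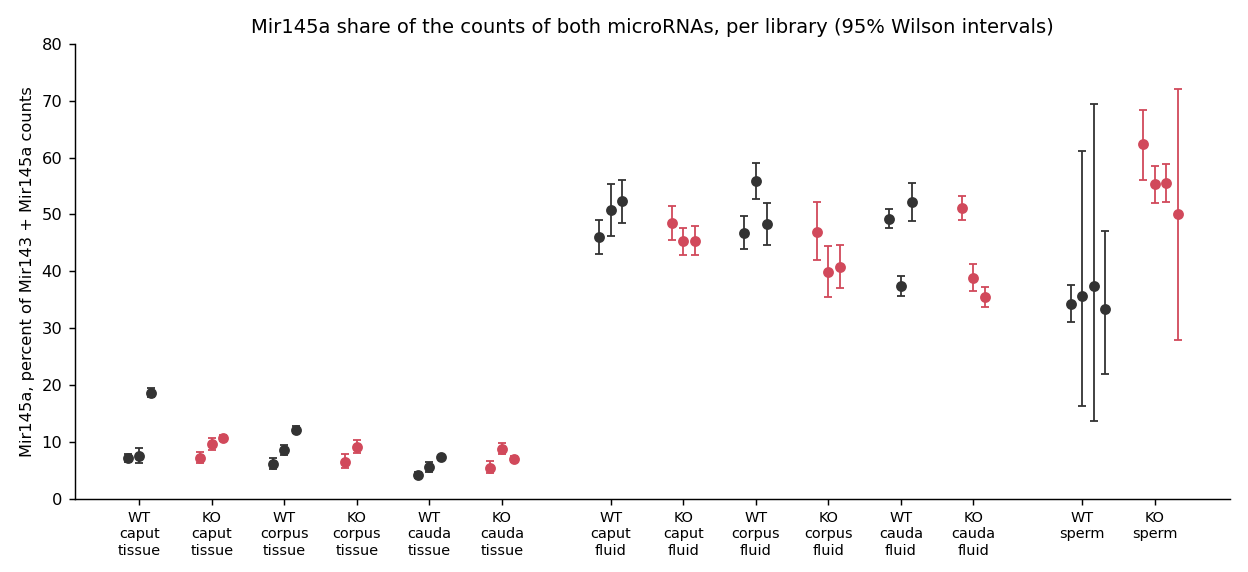
Mir145a counts as a percent of Mir143 plus Mir145a counts in each library, with 95% Wilson intervals, by segment and genotype, for tissue, fluid and sperm. Tissue libraries lie between 4.17% and 18.6%, and in sperm the WT libraries lie at 33.3% to 37.5% and the KO libraries at 50% to 62.4%.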

How the data were processed

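The authors trimmed reads with cutadapt, handled unique molecular identifiers with UMI-tools and counted small RNAs with a modified tRAX pipeline on bowtie2 alignments to mm10; versions are not given in the sources used here. The deposited tables hold raw counts per gene, in which a read that matched several genes equally well was counted on each, so copies of a microRNA share counts. Every column was mapped to a sample, and 0 were left out.

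Each table was fitted whole with edgeR 4.0.16 in R 4.3.3 (TMM scaling, filterByExpr with a minimum count of 10 and minimum total of 15, all groups in one quasi-likelihood fit, Benjamini-Hochberg adjustment over all tested rows, called under 0.05), and the scripts were tested on simulated data. Intervals are 95%, and 2 was the prior count behind log2 CPM. DESeq2 1.42.0, other scalings (DESeq2 size factors, library size, microRNA rows), no filter, only the compared groups, a replicate block and each library left out were alternatives. Alternatives added after seeing the data were the deep sperm libraries alone, a block for the ratio, one copy per microRNA and the corpus interaction. Ratios were tested by exact permutation within strata with scipy 1.17.1.

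The 2 genes and the marker lists were chosen with earlier results of these data known. By rule, the text names both genes throughout, up to 3 genes per marker list by mean CPM, and the 5 microRNA genes nearest in profile. Other marker genes were named after their values were seen. Pairing of same-numbered libraries was checked by whether every pair's deviations from the group means correlated above 0.1. This held for cauda against caput tissue (r 0.175 to 0.633, 6 pairs) and KO against WT cauda tissue (0.272 to 0.596, 3 pairs) but for no other comparison. The main tests, including the ratio permutations, left this pairing out, and the replicate block was run only as an alternative.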

Additional observations from a re-analysis of the deposited data

How the results depend on the processing

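The rise of Mir143 in cauda over caput and corpus tissue, averaged over the genotypes, kept its direction and its call under every alternative run, while other calls changed. Of those within a genotype, library-size scaling ended those of cauda over caput tissue for Mir143 in KO (1.10) and for Mir145a in WT (1.12) and KO (0.62), and of cauda over corpus for Mir143 in WT (1.43) and KO (1.86) and Mir145a in KO (1.67). Only the compared groups also ended the first of these corpus calls (1.43), and microRNA scaling the last (1.49). Leaving out 1 library ended the corpus call for Mir143 in WT in 3 of 6 runs (edgeR adjusted p up to 0.137). The corpus call for Mir145a in KO was lost without KO cauda replicate 2 (1.84, edgeR adjusted p = 0.0799). With 1 KO corpus library left, cauda over corpus in KO was 2.13 or 2.36 for Mir143 and 1.71 or 2.47 for Mir145a. Scaling by library size alone gave 0.87 for Mir145a in cauda over caput tissue and 1.16 over corpus, neither called, and turned corpus over caput to -0.029 (Mir143) and -0.29 (Mir145a), the KO difference of the cauda effect for Mir145a in tissue to -0.50 (-0.12 without a filter, -0.12 with only the compared groups) and KO in cauda fluid for Mir145a to 0.17. Scaling on microRNA rows gave 0.70 for Mir145a in cauda over caput fluid, no longer called. It turned KO in caput tissue (Mir143, -0.11), KO in cauda tissue (Mir145a, 0.076), corpus over caput tissue (Mir145a, -0.025, and Mir143 in KO alone, 0.17), KO in caput fluid (-0.049 and -0.24), KO in corpus fluid (-0.48 and -0.88), corpus over caput fluid in KO (Mir145a, -0.059), the KO difference of the cauda effect in fluid (Mir143, 0.15) and of the corpus effect (Mir143, -0.43, and -0.17 without a filter). None of these turned values was called. The cause was not tested.

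The replicate block changed no call averaged over the genotypes (cauda over caput tissue 2.27 for Mir143 and 1.56 for Mir145a); within WT it made both fluid cauda over caput values pass (1.29 and 1.04). For the sperm ratio the difference of 1.18 had an exact p of 0.125 with the block, the smallest that 4 pairs allow, and was 1.39 in the deep libraries alone. In WT alone the ratio gave -0.94 for cauda over caput tissue (exact permutation p = 0.20) and 0.038 for corpus over caput fluid.

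Leaving out each library in turn gave these ranges of log2 fold change: KO in caput tissue -0.077 to 0.44 (Mir143) and -0.42 to 0.37 (Mir145a); KO in cauda tissue -0.46 to 0.045 (Mir145a); corpus over caput tissue -0.089 to 0.38 (Mir145a); cauda over corpus tissue 1.19 to 1.58 (Mir145a). The KO difference of the cauda effect was -0.52 to 0.40 in tissue (Mir145a), and -1.20 to 0.13 (Mir143) and -1.06 to 0.0074 (Mir145a) in fluid; that of the corpus effect in fluid was -0.49 to 0.40 and -0.57 to 0.13. In fluid, KO in corpus was -0.13 to 0.35 (Mir145a), KO in cauda -0.56 to 0.77 and -0.60 to 0.32, cauda over caput 0.88 to 1.52 and 0.72 to 1.16, and corpus over caput in KO -0.0082 to 0.69 and -0.15 to 0.44. Sperm gave -0.92 to 0.0011 (Mir143). The ratio gave -0.39 to 0.0019 for corpus over caput tissue, -0.82 to -0.43 for cauda over caput tissue (p under 0.05 in 5 of 12 runs), -0.090 to 0.17 for KO in tissue, -0.40 to -0.24 for KO in fluid and 1.05 to 1.29 for KO in sperm. WT sperm replicates 2 and 3 rest on 9 and 5 counts of Mir143.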
